A study of Mus musculus with 29 samples.

Results

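Dbp, Tef, Hlf, Nfil3, Bhlhe40, Bhlhe41 and Rora, 7 transcription factors through which the circadian clock acts on other genes, were examined among the 22537 gene symbols counted in tibialis anterior (TA) muscle. They were chosen by name, for what they are known to do, with earlier results of these data known. All 7 were counted in each of the 29 libraries and passed the filter on low counts in every comparison. The libraries came from the whole TA of 22 male C57BL/6 mice of an aging rodent colony, of which 7 were aged 6m, 7 were aged 24m and 8 were aged 28m (28 months or older by the labels). The labels give no treatment and no altered gene for any group, and all mice had gone through tests of physical function, voluntary wheel running among them, before the muscle was taken. The first sequencing run held the 24m mice with the 6m mice, and the second held the 28m mice with a further library of every 6m mouse, so that each age was compared with the 6m libraries of its own run. The comparisons ask which genes change with age in the muscle. The hour of day at which muscles were collected is not given in the sources used here, and these genes are known to cycle over the day, so age and hour of collection cannot be told apart.

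Cells keep time through a loop in which the proteins CLOCK and ARNTL switch on Per and Cry genes, whose products then shut CLOCK and ARNTL down. Around this loop stand output factors that pass the rhythm on to other genes. DBP, TEF and HLF, the PAR bZIP family, switch on genes with a D-box in their promoters, and NFIL3 binds the same D-box and represses. BHLHE40 and BHLHE41, also called DEC1 and DEC2, repress at the E-box that CLOCK and ARNTL use, and RORA, a nuclear receptor, switches on Arntl and other genes where REV-ERB (Nr1d1) represses. In skeletal muscle the clock is known for its hold on fuel use and on the timing of muscle genes.

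Total counts were between 17633475 and 33499162 per library. Libraries differed in a trend with gene length, given here as the log2 difference from the mean of the libraries per doubling of exonic length. In the second run it was between 0.11 and 0.15 at 6m and between -0.37 and 0.07 at 28m. In the first run it was between -0.19 and 0.14 at 6m and between -0.42 and 0.16 at 24m. Across 12870 genes, the log2fc at 28m had a Spearman's rho of -0.54 with exonic length, and genes are not independent replicates. The members have exonic lengths of 2026 bases (Nfil3), 2993 (Dbp), 4705 (Bhlhe40), 6681 (Hlf), 6720 (Bhlhe41), 7867 (Tef) and 13071 (Rora), against a median of 4491. Values are also given from libraries freed of their dependence on length and GC content, for the members whose call then changed and for some others. Summed markers of fast fibres, the main fibres of this muscle, were at 105466 CPM (counts scaled to a common library total) or more in each library.

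The sequence before the start of transcription is shown for the members that fell at 28m (Hlf, Bhlhe41 and Rora) and for Tef, to set the genes with an E-box beside those without one. The sequences are those of RefSeq for GRCm38.p6, which matched 6 of the members by symbol and not Bhlhe40, printed 5′ to 3′ on the strand of the gene and without bases that lie in an exon of the gene. Capitals mark the E-box CACGTG.
Hlf, chr11:90390918-90391167, minus strand: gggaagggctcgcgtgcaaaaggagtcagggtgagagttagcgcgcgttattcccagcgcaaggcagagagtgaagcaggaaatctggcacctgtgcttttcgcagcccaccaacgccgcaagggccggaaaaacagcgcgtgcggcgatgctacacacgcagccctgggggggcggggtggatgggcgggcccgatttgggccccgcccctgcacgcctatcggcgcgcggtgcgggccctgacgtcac
Bhlhe41, chr6:145865559-145865670, minus strand: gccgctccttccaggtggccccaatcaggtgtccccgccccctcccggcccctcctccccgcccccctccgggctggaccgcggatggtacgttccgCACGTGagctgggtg
Rora, chr9:68653536-68653785, plus strand: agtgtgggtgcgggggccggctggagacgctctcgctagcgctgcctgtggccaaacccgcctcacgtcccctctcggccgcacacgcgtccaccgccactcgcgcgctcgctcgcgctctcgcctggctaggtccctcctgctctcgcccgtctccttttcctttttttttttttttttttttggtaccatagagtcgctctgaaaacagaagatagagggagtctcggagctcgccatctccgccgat
Tef, chr15:81811164-81811413, plus strand: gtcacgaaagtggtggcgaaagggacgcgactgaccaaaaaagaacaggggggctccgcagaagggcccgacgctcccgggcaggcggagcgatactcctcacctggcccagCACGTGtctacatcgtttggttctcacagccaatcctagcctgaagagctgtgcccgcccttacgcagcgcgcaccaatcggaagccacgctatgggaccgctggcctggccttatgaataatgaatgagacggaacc
The E-box, which reads the same on both strands, began 153 bases before the start of Bhlhe41 and 138 bases before this start of Tef. Another start of Tef, inside an exon, had an E-box 127 bases before it. Windows of 300 bases, 250 before and the rest after the start, were searched on both strands, and an E-box was found in 7.15% of 32851 such windows. The D-box, searched as TTATGTAA and TTACGTAA, was in none of the members' windows and in 1.06% of all. AGGTCA, the short site bound by RORA and REV-ERB, was found in the window of Nfil3 alone among the members, as TGACCT 12 bases before the start, and in 16.3% of all. These matches are of letters only, and bound factors were not measured.

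At 28m, Hlf, Bhlhe41 and Rora were lower than at 6m, and no member was higher. These 3 of 7 (adjusted p under 0.05 in the quasi-likelihood test of edgeR, Benjamini-Hochberg) stand against 47.3% of all 12994 genes called, with 22.9% called lower and 24.3% higher. The share of members that changed is thus near that of all genes. The median log2fc was -0.03 over the 7 members and 0.01 over all genes tested. In edgeR with all mice, no member reached the absolute log2fc of 1 that the study asks of a DEG, which 5.7% of genes did with an adjusted p under 0.05. Bhlhe41 did with limma-voom (log2fc -1.02, adjusted p = 0.00526), and Rora without 28m replicate 4 (log2fc -1.002, edgeR adjusted p = 0.00199). Against the other run's 6m libraries, 2981 of 12984 genes were called and 1 of the 7 members (Bhlhe41), and once the length and GC trend of each library was taken out 4765 of 12870 genes were called, 2768 of them higher and 1997 lower, and 2 of the 7 members (Tef higher, Bhlhe41 lower). Since whole muscle was sequenced, fewer cells of a type and less RNA per cell cannot be told apart. With 1 library per mouse in each comparison, the p-values measure the spread between these mice and between library preparations together.

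**Figure D1:**
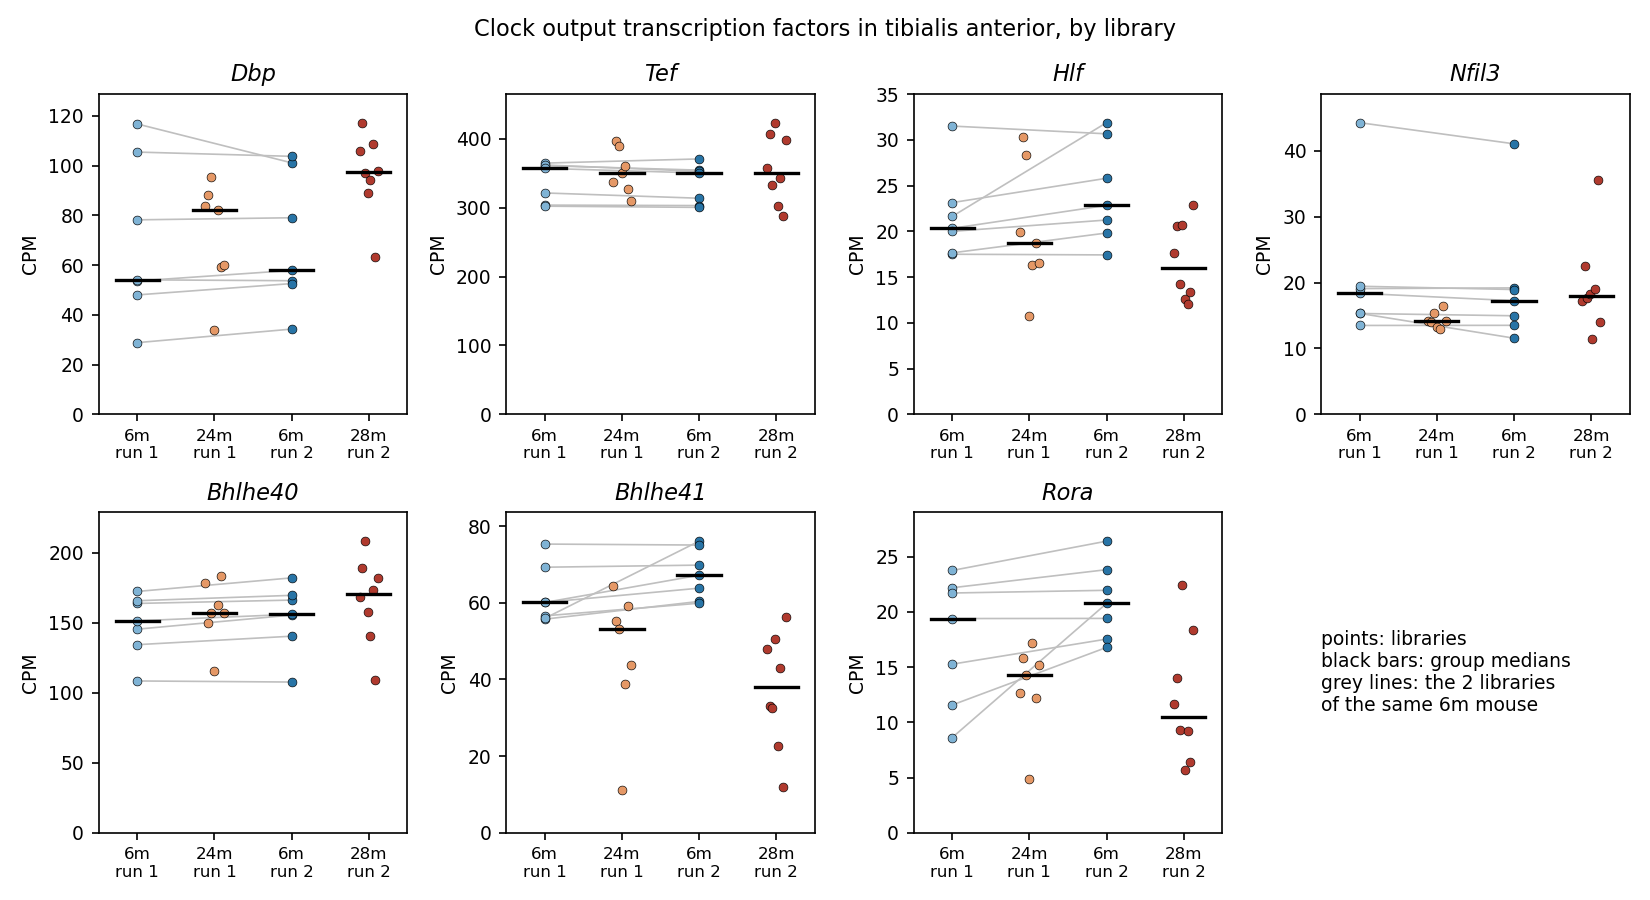
CPM of the 7 members in each of 29 libraries, by age and run, with a point for each library, a black bar at the median of each group and a grey line between the 2 libraries of a 6m mouse. For Bhlhe41 all 28m points lie under the lowest 6m point of the second run, and the groups overlapped for the other 6 genes.

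Dbp (ENSMUSG00000059824.12), the albumin D-box binding protein of the PAR bZIP family, lies on chr7:45705088-45710203, plus strand. Its lowest, median and highest levels were 34.3, 57.9 and 103.8 CPM in the 7 mice at 6m of the second run and 63.1, 97.5 and 117.3 CPM in the 8 mice at 28m. Most mice at 28m stood near the top of the 6m range, 3 of 8 above all of it, and the groups overlapped. The 28m mean of 96.6 ± 16.3 CPM (SD, n = 8) stood above the 6m mean of 68.9 ± 26.4 CPM (SD, n = 7), with a log2fc of 0.46 ± 0.20 (SE) and an edgeR adjusted p = 0.0703. Dbp passed the threshold with limma-voom (adjusted p = 0.0423) and with upper-quartile scaling in edgeR (adjusted p = 0.0496). It did not pass under the other settings tried. Their adjusted p ran from 0.0612 (DESeq2) to 0.142 (edgeR, the other run's 6m libraries). Of the 15 edgeR fits that left out 1 mouse, Dbp passed in 3, and the highest adjusted p was 0.135. The 3 had an adjusted p = 0.032 without 6m replicate 4, 0.0278 without 6m replicate 7 and 0.039 without 28m replicate 7. An exon of Sphk2 lies over Dbp on the opposite strand, and the strand setting of the counting is not stated in the sources used here, so reads of the 2 genes may be shared. The same holds for Tef (with Gm17597), Bhlhe40 (0610040F04Rik), Bhlhe41 (Gm43909) and Rora (Gm15511), each of which shares exonic bases with a gene on the opposite strand.

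Tef (ENSMUSG00000022389.15, chr15:81802421-81826863, plus strand), the member of the PAR bZIP family with the most counts here, had lowest, median and highest levels of 300.4, 350.3 and 370.7 CPM at 6m and 287.2, 350.5 and 423.3 CPM at 28m. The medians were close, and 3 of 8 mice at 28m lay above and 1 below all mice at 6m. The log2fc was 0.06 with a 95% interval of -0.13 to 0.25, and the edgeR adjusted p = 0.601. After removal of the length and GC trend, Tef was higher at 28m, with a log2fc of 0.42 ± 0.10 (SE) and an edgeR adjusted p = 0.00363. Tef passed under that setting alone of those tried.

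Hlf (ENSMUSG00000003949.16, chr11:90336536-90390895, minus strand), the third PAR bZIP factor, had lowest, median and highest levels of 17.4, 22.8 and 31.9 CPM at 6m and 12.02, 16.0 and 22.9 CPM at 28m. The lower part of the 28m group, 4 of 8 mice, lay below all mice at 6m, and the other 4 lay within the 6m range. The mean fell from 24.2 ± 5.46 CPM (SD, n = 7) to 16.8 ± 4.22 CPM (SD, n = 8), to 68.0% of the 6m level in the fit, with a log2fc of -0.56 ± 0.17 (SE) and an edgeR adjusted p = 0.013. Hlf was lower in each of the 15 fits that left out 1 mouse. It did not pass the threshold after removal of the length and GC trend (log2fc -0.38, edgeR adjusted p = 0.0665) or against the other run's 6m libraries (log2fc -0.39, edgeR adjusted p = 0.0864). Hlf shares no exonic base with another annotated gene.

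Nfil3 (ENSMUSG00000056749.7, chr13:52967209-52981073, minus strand), the repressor at the D-box, had lowest, median and highest levels of 11.6, 17.2 and 41.1 CPM at 6m and 11.5, 18.01 and 35.5 CPM at 28m. Each group held 1 mouse far above the rest, replicate 3 at 6m and replicate 7 at 28m, and the groups overlapped over nearly the whole range. The log2fc was -0.03 with a 95% interval of -0.54 to 0.49 and an edgeR adjusted p = 0.942, so a change within that interval could not be told from none. After removal of the length and GC trend the log2fc was -0.33, with an edgeR adjusted p = 0.306.

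Bhlhe40 (ENSMUSG00000030103.11, chr6:108660629-108666925, plus strand) and Bhlhe41 (ENSMUSG00000030256.11, chr6:145858243-145865558, minus strand) are a pair of related E-box repressors. For Bhlhe40, the lowest, median and highest levels were 107.6, 155.9 and 181.9 CPM at 6m and 108.9, 170.6 and 208.1 CPM at 28m. The ranges began at the same level, 3 of 8 mice at 28m exceeded the 6m range, and the log2fc of 0.08 (95% interval -0.18 to 0.34) did not pass, with an edgeR adjusted p = 0.622. For Bhlhe41, they were 59.9, 67.2 and 76.1 CPM at 6m and 12.1, 38.1 and 56.4 CPM at 28m. The ranges did not overlap, with all 8 mice lower at 28m, which held for 6.18% of all genes tested, and the 28m mice were spread more widely. The mean of Bhlhe41 fell from 67.5 ± 6.57 CPM (SD, n = 7) to 37.3 ± 15.004 CPM (SD, n = 8), to 54.3% of the 6m level in the fit, with a log2fc of -0.88 ± 0.24 (SE) and an edgeR adjusted p = 0.00753. It passed in all 15 fits that left out 1 mouse and under each of the 9 other settings tried, after removal of the length and GC trend (log2fc -0.68, edgeR adjusted p = 0.016) and against the other run's 6m libraries (log2fc -0.75, edgeR adjusted p = 0.0362) among them.

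Rora (ENSMUSG00000032238.17, chr9:68653786-69388246, plus strand), the nuclear receptor that switches on Arntl, had lowest, median and highest levels of 16.8, 20.8 and 26.4 CPM at 6m and 5.73, 10.49 and 22.5 CPM at 28m. Of the mice at 28m, 6 of 8 lay below all mice at 6m, and replicates 4 and 8 lay within the 6m range. The mean fell from 20.96 ± 3.43 CPM (SD, n = 7) to 12.1 ± 5.85 CPM (SD, n = 8), to 57.0% of the 6m level in the fit, with a log2fc of -0.81 ± 0.25 (SE) and an edgeR adjusted p = 0.0148. It passed in all 15 fits that left out 1 mouse. It did not pass after removal of the length and GC trend (log2fc -0.47, edgeR adjusted p = 0.0718) or against the other run's 6m libraries (log2fc -0.55, edgeR adjusted p = 0.163).

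**Figure D2:**
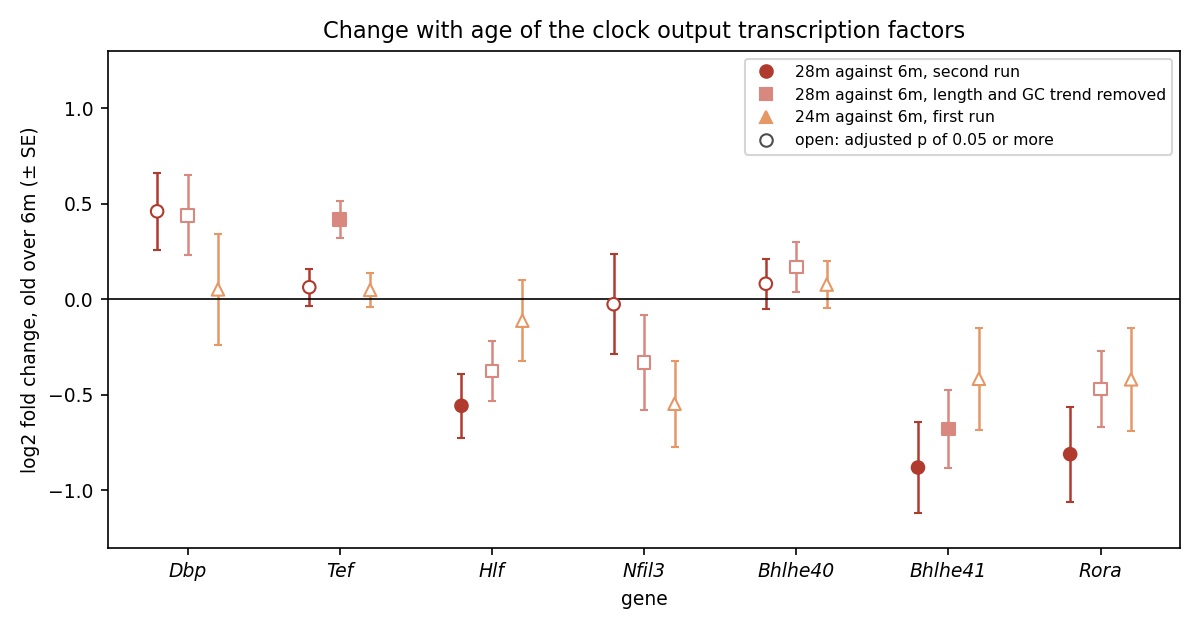
Log2 fold change with its SE, old over 6m, for the 7 members at 28m, at 28m after removal of the length and GC trend, and at 24m, with filled symbols where the edgeR adjusted p was under 0.05. Removing the trend brought Hlf (-0.38) and Rora (-0.47) nearer to 0 and raised Tef (0.42), and no symbol at 24m is filled.

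The levels of the 3 genes that fell are set beside the trend of each library with length. The lowest Bhlhe41 of all libraries, 11.3 CPM in 24m replicate 4 and 12.1 CPM in 28m replicate 7, stood in the libraries with the steepest trends, -0.42 and -0.37. At 28m, replicates 4 and 8 had trends of 0.05 and 0.07, and their Rora of 22.5 and 18.4 CPM and Bhlhe41 of 50.6 and 56.4 CPM were the highest of the group. Replicate 8 also had the highest Hlf of the group, 22.9 CPM. For 6m replicate 4, Rora was at 8.62 CPM in the library of the first run, with a trend of -0.19, and at 20.8 CPM in that of the second run, with a trend of 0.13. Bhlhe41 was at 55.9 and 76.1 CPM in these libraries. Other libraries did not line up in this way. At 24m, replicate 5 had the highest trend of all libraries, 0.16, and the second lowest Bhlhe41 and Hlf of its group, 38.8 and 16.3 CPM, though its Rora, 17.2 CPM, was the highest of the group. At 28m, replicate 6, with a trend of -0.03, had the lowest Hlf of its group, 12.02 CPM. Beyond its removal, as given above, the part of this trend in the lower levels at 28m was not tested.

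**Figure D3:**
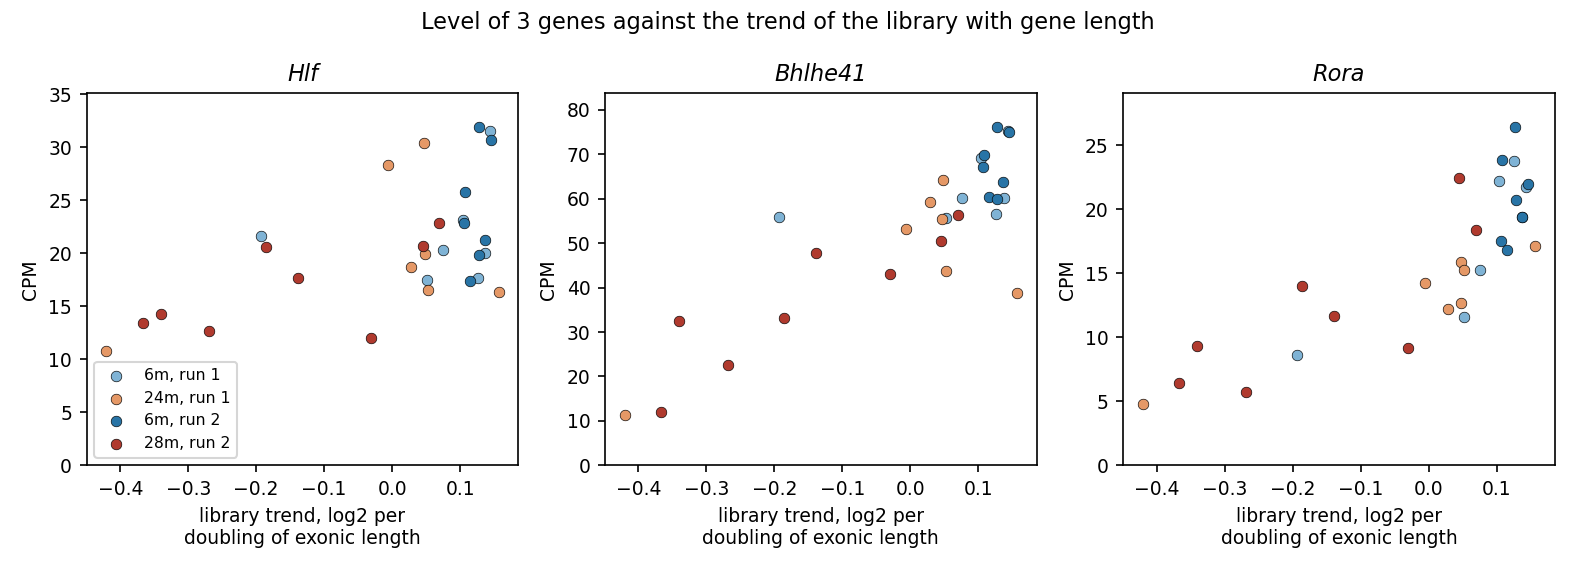
CPM of Hlf, Bhlhe41 and Rora in each of 29 libraries against the trend of the library with exonic length (log2 per doubling of length), coloured by age and run. The libraries with trends under -0.2 are all of old mice and hold the lowest Bhlhe41, from 11.3 to 32.6 CPM. Just outside that cut, 6m replicate 4 of the first run, with a trend of -0.19, had 55.9 CPM of Bhlhe41.

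At 24m, none of the 7 members passed the test, against 0.084% of 13103 genes, or 11 genes. The number of genes called at 24m was 216 with DESeq2, 152 with a dispersion shared by all libraries, 46 with the other run's 6m libraries and 30 without 24m replicate 4, with no member among them in any of these. Before adjustment 1546 genes had a p under 0.05, and Nfil3 was the one member among them. Nfil3 was at 13.5, 18.4 and 44.3 CPM (lowest, median and highest) at 6m in the first run and at 13.02, 14.2 and 16.4 CPM at 24m. The 24m mice were close together in the lower part of the 6m range, and the log2fc was -0.55 ± 0.23 (SE), with an edgeR adjusted p = 0.387, and -0.23 without 6m replicate 3. Bhlhe41 was at 55.7, 60.1 and 75.3 CPM at 6m and at 11.3, 53.3 and 64.3 CPM at 24m, with 5 of 7 mice at 24m below all at 6m. The log2fc of Bhlhe41 was -0.42 ± 0.27 (SE), with an edgeR adjusted p = 0.523, and -0.24 without 24m replicate 4. Rora was at 8.62, 19.4 and 23.8 CPM at 6m and at 4.83, 14.3 and 17.2 CPM at 24m, and only replicate 4 at 24m lay below all 6m libraries. Its log2fc of -0.42 ± 0.27 (SE) had an edgeR adjusted p = 0.524, and was -0.27 without 24m replicate 4 and -0.68 with the other run's 6m libraries (edgeR adjusted p = 0.133). Hlf (log2fc -0.11, 95% interval -0.52 to 0.30), Dbp (0.05, -0.51 to 0.62), Tef (0.05, -0.13 to 0.22) and Bhlhe40 (0.08, -0.16 to 0.32) were nearer to 0, and the groups overlapped for all of them.

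That 3 members passed at 28m and none at 24m does not show that the ages differ. In a model of all 29 libraries, the difference between the age effects was tested directly, and it passed for none of the members and for 0% of 13455 genes. Before adjustment 1611 genes and none of the 7 members had a p under 0.05 in edgeR, and DESeq2 called 2 genes, neither a member. The difference, 28m minus 24m, was in edgeR -0.42 for Hlf (95% interval -0.96 to 0.11), -0.45 for Bhlhe41 (-1.16 to 0.27) and -0.38 for Rora (-1.12 to 0.36). It was 0.43 for Dbp (-0.28 to 1.15) and 0.54 for Nfil3 (-0.17 to 1.24). With the length and GC trend removed, it was -0.25 for Hlf, -0.25 for Bhlhe41 and -0.10 for Rora. For Dbp, Nfil3 and Tef it was then 0.42, 0.35 and 0.32. Without 24m replicate 4, the library with the steepest length trend, 1657 genes passed, again with no member among them.

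The 2 libraries of each 6m mouse show how far a member's level repeats. Between the runs, with the mouse as a block, none of the 7 members and 0% of 12884 genes passed in edgeR, where the unadjusted p was under 0.05 for 1052 genes and DESeq2 called 0. Of the members, the unadjusted p was under 0.05 for Rora (log2fc 0.31, second over first run), Hlf (0.16) and Bhlhe41 (0.14), each with an edgeR adjusted p = 0.498, and these are the 3 members that were lower at 28m. For Dbp, the SD of the libraries within a mouse was 0.10 on the log2 scale and the SD between the 6m mice was 0.64. Nfil3 (0.12 within and 0.57 between), Bhlhe40 (0.04 and 0.24) and Hlf (0.17 and 0.29) likewise differed more between mice than between libraries of a mouse. Tef had the smallest spread of both kinds, 0.02 within and 0.12 between. For Bhlhe41 (0.13 and 0.14) and Rora (0.37 and 0.36) the repeat libraries of a mouse were as far apart as the mice, largely through replicate 4. Without it the SD within a mouse was 0.07 for Bhlhe41, 0.17 for Rora, 0.09 for Hlf and 0.04 for Nfil3. Replicate 3 at 6m had the lowest Dbp, 28.8 and 34.3 CPM, and the highest Nfil3, 44.3 and 41.1 CPM, in both of its libraries.

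Per kilobase of exon, the mean levels at each age ran in the order Tef, Bhlhe40, Dbp, Nfil3, Bhlhe41, Hlf and Rora. By the median, Bhlhe41 stood above Nfil3 at 6m (9.47 against 8.79 CPM per kilobase) and at 24m (7.93 against 7.00 CPM per kilobase). At 6m, with the libraries of a mouse averaged, Tef was at 42.8 ± 3.61 CPM per kilobase (SD, n = 7), Bhlhe40 at 32.1 ± 4.90 and Dbp at 23.1 ± 9.75. Nfil3 at 9.94 ± 5.06 and Bhlhe41 at 9.62 ± 0.921 did not differ beyond their spread, and Nfil3 was the higher in 3 of 7 mice. Hlf at 3.44 ± 0.718 and Rora at 1.47 ± 0.327 CPM per kilobase were the lowest. Each neighbour in the order other than Nfil3 and Bhlhe41 was above the next in at least 6 of 7 mice at 6m. At 28m, Bhlhe41 had moved away from Nfil3, at 5.55 ± 2.23 against 9.62 ± 3.59 CPM per kilobase (SD, n = 8), with Nfil3 the higher in 7 of 8 mice, though the ranges overlapped. Bhlhe41 has 6720 exonic bases and Nfil3 2026, and these levels carry the trend of the libraries with length. With the length and GC trend removed, the log2fc at 28m was -0.68 for Bhlhe41 and -0.33 for Nfil3, against -0.88 and -0.03 with it.

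Several members varied together from mouse to mouse. For the 22 mice, deviations of log2 CPM from the group means were compared for all 21 pairs of members, with permutation p-values two-sided and adjusted over the 21. By Pearson's r, 10 pairs passed, 9 of them positive, and by Spearman's rho 8, with 7 in common. How often pairs of other genes pass this test was not measured, so the count is not shown to be particular to the members. Dbp and Bhlhe40 had the smallest p, with r = 0.73 (adjusted permutation p = 0.00357) and rho = 0.57 (adjusted permutation p = 0.0211). Within the runs their r was 0.80 in the first and 0.79 in the second, and it was 0.54 without the 2 mice farthest from the median of Dbp. Hlf went with Dbp (r = 0.68, adjusted permutation p = 0.0043, rho = 0.66, adjusted permutation p = 0.00665), with r = 0.73 and 0.59 within the runs and 0.57 without the 2 farthest mice. By age, r of Hlf and Dbp was 0.86 at 6m, 0.85 at 24m and 0.27 at 28m. Hlf also went with Bhlhe41 (r = 0.68, adjusted permutation p = 0.00531, rho = 0.71, adjusted permutation p = 0.00665), with r = 0.75 and 0.56 within the runs and 0.53 without the 2 farthest mice, and did not pass in the second run alone (adjusted permutation p = 0.0562).

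Of the pairs that passed, the one with a negative r was Dbp and Nfil3, an activator and the repressor of the D-box, with r = -0.55 (adjusted permutation p = 0.0149). Their rho was -0.28 (adjusted permutation p = 0.345), so the ranks did not pass. Within the runs r was -0.61 and -0.72, and it was -0.47 without the 2 mice farthest from the median of Dbp. By age, r was -0.84 at 6m, 0.21 at 24m and -0.53 at 28m, so the negative r was not seen in the 24m mice. The pair did not pass in the first run alone (adjusted permutation p = 0.107) or with the length and GC trend removed (r = -0.42, adjusted permutation p = 0.179). The 6m mouse with the lowest Dbp and the highest Nfil3 in both runs is among these. The highest r of any pair was that of Bhlhe41 and Rora, 0.76 (adjusted permutation p = 0.00541), with rho = 0.50 (adjusted permutation p = 0.0714). For Bhlhe41 and Rora r was 0.70 in the first run, where the pair did not pass (adjusted permutation p = 0.158), 0.74 in the second and 0.56 without the 2 farthest mice. By age it was 0.27 at 6m, 0.85 at 24m and 0.78 at 28m. Tef went with Hlf (r = 0.68, adjusted permutation p = 0.00531) and Rora (r = 0.62, adjusted permutation p = 0.0139). For Tef and Hlf r was 0.53 in the first run, where it did not pass (adjusted permutation p = 0.168), and 0.80 in the second. For Tef and Rora r was 0.15 in the first run (adjusted permutation p = 0.787) and 0.91 in the second, and 0.33 at 6m, 0.12 at 24m and 0.96 at 28m. With the length and GC trend removed from each library, r was 0.26 for Tef and Hlf and -0.13 for Tef and Rora, and neither passed (adjusted permutation p = 0.455 and 0.698). The r of Dbp with Hlf (0.66), Bhlhe40 (0.71) and Bhlhe41 (0.62) and of Bhlhe40 with Bhlhe41 (0.64) still passed then, with an adjusted permutation p of 0.00672 at most. In all, 8 pairs passed with the trend removed, Nfil3 and Rora (r = 0.48, adjusted permutation p = 0.0401) newly among them. Nfil3 and Bhlhe40 had r = -0.49 (adjusted permutation p = 0.064), and passed in the second run alone (r = -0.64, adjusted permutation p = 0.0346).

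**Figure D4:**
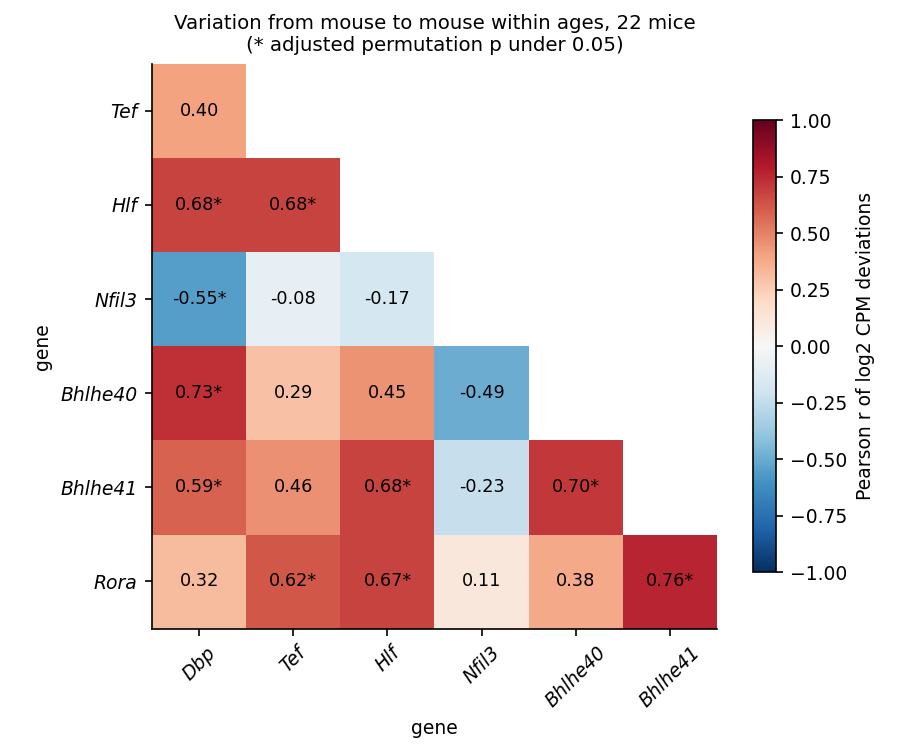
Pearson's r of the deviations of log2 CPM from the group means between each pair of the 7 members, over 22 mice, with a star where the adjusted permutation p was under 0.05. Of 21 pairs 10 carry a star, and Dbp with Nfil3, at -0.55, is the starred pair below 0.

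The genes whose levels went most like a member's over the 22 mice are given as a description, among 10992 genes of at least 2 CPM. For Dbp the closest was Per3 (r = 0.84), a repressor of the clock's negative arm, then Tmem86a (0.77) and Tbce (0.75). For Tef they were Rnf144b (0.84), the clock repressor Per1 (0.81) and Tspyl2 (0.80), and for Hlf they were Mylk4 (0.90), Gpr155 (0.84) and A430105I19Rik (0.83). Nfil3 went most like Abra (0.80), Ppp1r3c (0.80) and Cntfr (0.78), and Bhlhe40 most like Ssx2ip (0.82), Zfp715 (0.80) and Zmym2 (0.80). The closest to Bhlhe41 were Pip5k1a (0.96), Eif4enif1 (0.95) and Raver2 (0.95), and the closest to Rora were Hipk1 (0.96), Il6st (0.95) and Rictor (0.94). The points share libraries, depth and the trend with length.

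The other genes of the clock were taken from lists of its parts. Of the positive arm, which drives the loop, 5 of 6 genes were tested at 28m, and 3 were lower and none higher, beside 22.9% of all genes lower, with a median log2fc of -0.99 beside 0.01 over all genes. Clock, which encodes the partner of ARNTL, was at 35.96, 40.9 and 53.1 CPM (lowest, median and highest) at 6m and at 10.8, 19.5 and 31.1 CPM at 28m. No mouse at 28m reached the lowest at 6m, with a log2fc of -0.99 ± 0.18 (SE) and an edgeR adjusted p = 0.000948. Arntl, the target of RORA and REV-ERB, was at 13.5, 23.2 and 43.9 CPM at 6m and at 5.36, 7.56 and 19.8 CPM at 28m, and 7 of 8 mice lay below all at 6m. Its log2fc was -1.38 ± 0.29 (SE), with an edgeR adjusted p = 0.00195. Npas2, a relative of Clock, had few counts (8 to 52 per library in the second run) and a log2fc of -1.48 ± 0.38 (SE), with an edgeR adjusted p = 0.0061. All 3 were lower too after removal of the length and GC trend, with log2fc of -0.62, -1.06 and -1.36 and an edgeR adjusted p of 0.0128 or less.

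Of the 8 genes of the negative arm, 2 were higher and 1 lower at 28m, where 47.3% of all genes were called. Nr1d1, the repressor that shares its sites with RORA, was at 202.2, 255.8 and 292.8 CPM at 6m and at 52.8, 121.7 and 179.8 CPM at 28m, with no overlap. Its log2fc was -1.02 ± 0.19 (SE), with an edgeR adjusted p = 0.00105, and -1.04 after removal of the trend. The genes that were higher, named after their values were seen, were Cry2 (log2fc 0.48) and Ciart (0.96). Per1, Per2 and Per3 did not pass (log2fc 0.52, 0.46 and 0.14) but did with the length and GC trend removed (0.73, 0.66 and 0.54), while Ciart then did not (0.71, edgeR adjusted p = 0.096). Of the kinases and ubiquitin ligases that set the life of clock proteins, 6 of 7 were tested, with Csnk1e (0.29) higher and Fbxw11 (-0.41) lower, also named after their values were seen. Csnk1e did not pass against the other run's 6m libraries (0.31, edgeR adjusted p = 0.055). Btrc and Csnk1d did not pass (-0.07 and 0.04) but were higher with the trend removed (0.39 and 0.20).

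Of 10 genes that the clock is known to drive in muscle or other tissues, 4 were higher and none lower at 28m in edgeR, with a median log2fc of 0.30, beside 24.3% of all genes higher and 22.9% lower. DESeq2 called 5 higher, and upper-quartile scaling gave 6 with Wee1 and Klf15 added. With the other run's 6m libraries 1 gene, Nampt, was lower. Usp2, a deubiquitinase, was at 167.3, 191.6 and 268.1 CPM at 6m and at 266.1, 296.2 and 382.3 CPM at 28m, with 7 of 8 mice above all at 6m. The log2fc of Usp2 was 0.54 ± 0.12 (SE), with an edgeR adjusted p = 0.00335. Tspan4, a tetraspanin, had a log2fc of 0.72 ± 0.17 (SE) and an edgeR adjusted p = 0.00399. Tcap, the titin cap of the sarcomere, had a log2fc of 1.08 ± 0.17 (SE) and an edgeR adjusted p = 0.000536, and after removal of the length and GC trend a log2fc of 0.58 and an edgeR adjusted p = 0.000978. Cdkn1a, the inhibitor of cyclin-dependent kinases also known as p21, was at 5.88, 10.9 and 18.2 CPM at 6m and at 25.5, 40.0 and 136.2 CPM at 28m. Its groups did not overlap, and the log2fc was 2.199 ± 0.37 (SE), with an edgeR adjusted p = 0.000678. At 24m no gene of these lists passed in edgeR. Cdkn1a, which passed with DESeq2 (adjusted p = 0.000481) and in edgeR with a dispersion shared by all libraries (adjusted p = 0.0083), had a log2fc of 2.70 ± 0.61 (SE) there and an edgeR adjusted p = 0.121.

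**Figure D5:**
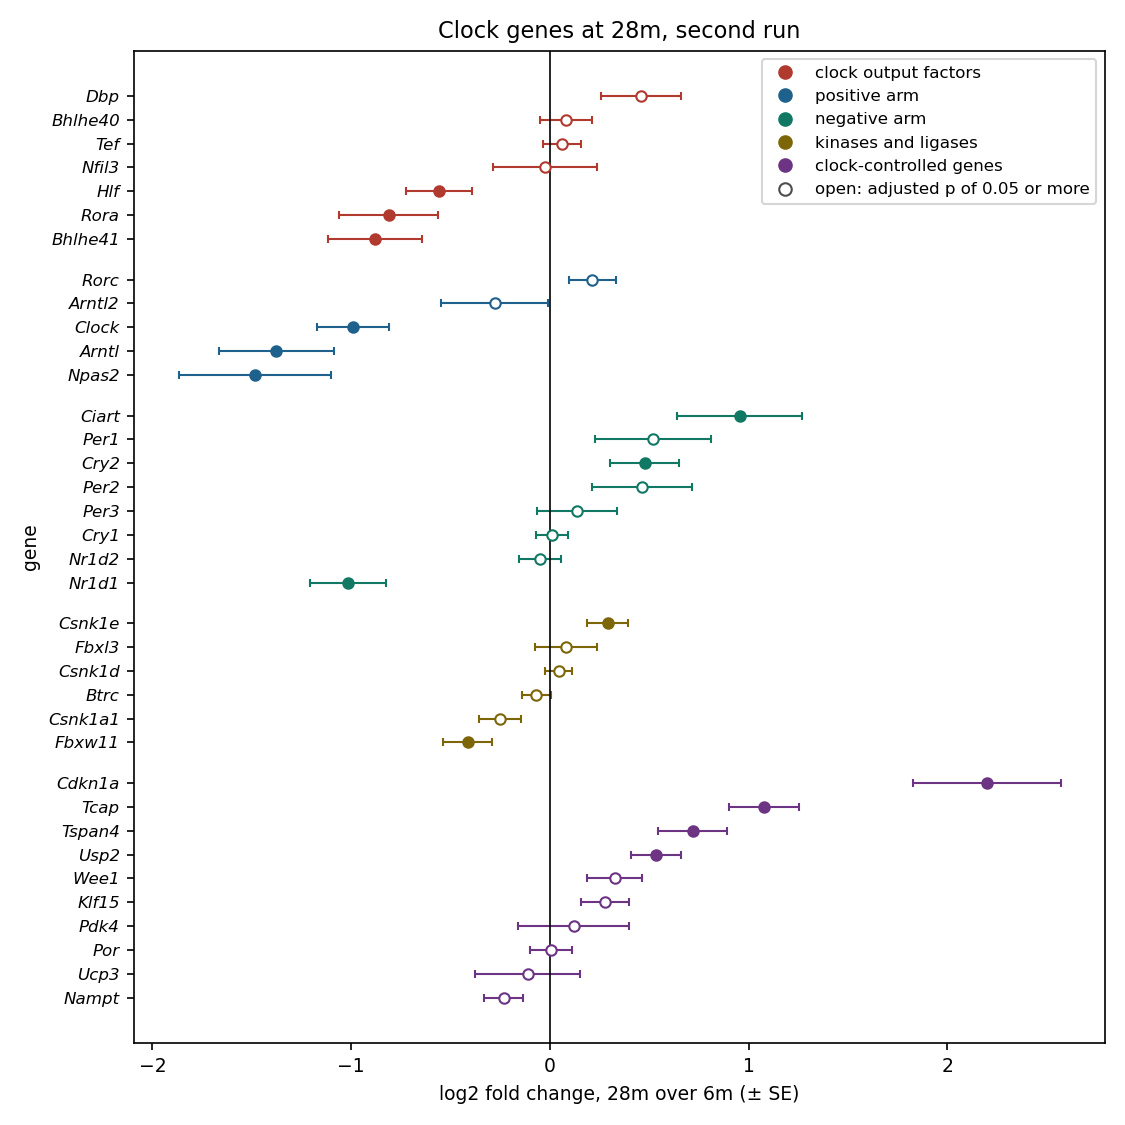
Log2 fold change with its SE, 28m over 6m in the second run, of the 7 members and of the tested genes of the clock lists, with filled symbols where the edgeR adjusted p was under 0.05. Clock, Arntl, Npas2 and Nr1d1 lie near or below -1, and Hlf, Rora and Bhlhe41 between -0.56 and -0.88.

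Markers of other cell types were counted in the same fit, in which 22.9% of all genes were lower and 24.3% higher at 28m. Endothelial markers, which line vessels in the muscle, were lower at 28m for 7 of 8 genes, and their summed level was 247.5 to 414.0 CPM at 28m and 482.6 to 550.6 CPM at 6m of the second run. Fibroblast markers had 3 of 6 genes lower and 1 higher, with summed levels of 343.1 to 1190 CPM at 28m and 565.3 to 2783 CPM at 6m. Slow-fibre markers had 3 of 6 genes higher, with 99.1 to 252.4 CPM at 28m and 78.1 to 125.6 CPM at 6m. Adipocyte markers had 1 of 5 higher and Schwann cell markers 1 of 5 higher, none of 4 tested immune markers passed, and fast-fibre markers had 3 of 7 higher and 1 lower. None of the marker genes was at 0 in a whole group. Their part in the levels of Hlf, Bhlhe41 and Rora was not tested.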

How the data were processed

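Poly-A RNA of the whole TA was sequenced in 29 libraries of 22 mice. The authors aligned reads to mm10 with STAR 2.5.4b and deposited counts of reads per gene for 22537 symbols, without normalization. The labels and methods put each library in its age and run, and 0 columns lacked a sample. The fits used edgeR 4.0.16 (R 4.3.3), with filterByExpr, TMM scaling and the quasi-likelihood F test, adjusted by Benjamini-Hochberg over all genes tested at 0.05. CPM of single libraries was scaled over all 29. The members, the clock and marker lists and the tests were chosen with earlier results of these data known.

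The test of the difference used all libraries, with a mean for each group and no block for the mouse. The runs were compared at 6m with the mouse as a block, since a replicate number marks 1 mouse, and the libraries of a mouse deviated together (correlation across genes 0.218 to 0.814, 7 mice). Pairs of members were tested on log2 CPM with a prior count of 2 and 100000 permutations within ages. The clock genes given with full statistics are the 8 with the smallest adjusted p at 28m. Alternatives were DESeq2 1.42.0, limma-voom (limma 3.58.1), other scalings and filters, a shared dispersion, the other run's 6m libraries, removal of a length and GC trend, and leaving out each mouse. The trend used exonic length and GC content of GENCODE genes on GRCm38, matched by symbol for 20202 of the symbols and by synonym for 1896. The scripts were tested on simulated data. Permutations ran in Python 3.11.15, and plots in matplotlib 3.10.9.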

Additional observations from a re-analysis of the deposited data

Results flagged for a closer look

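In 5 of 28 sets of libraries (7 members in 4 groups), 1 library lay far from the others of its group by Dixon's test, and chance alone flags about 1 in 20 such groups. Nfil3 was at 44.3 CPM in 6m replicate 3 of the first run, where the next library was at 19.4 CPM. In the second run it was at 41.1 CPM in the same mouse, where the next was at 19.2 CPM, so the high level of Nfil3 in this mouse was seen in both of its libraries. At 28m, replicate 7 had 35.5 CPM of Nfil3, the next mouse 22.6 CPM. That library also had the steepest trend with gene length of its group, -0.37 on the log2 scale per doubling, and the lowest Dbp and Bhlhe40 of its group, 63.1 and 108.9 CPM. Hlf was at 31.5 CPM in 6m replicate 7 of the first run, the next at 23.1 CPM, and its repeat library had 30.7 CPM. Rora was at 4.83 CPM in 24m replicate 4, the next at 12.2 CPM, in the library with the steepest length trend of all, -0.42. No cause was tested.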

How the results depend on the processing

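Of the 7 members, 3 passed at 28m, and 1 (Bhlhe41) against the other run's 6m libraries, and leaving out each mouse gave between 3 and 4. At 24m, in the difference of the age effects and between the 6m libraries of the runs, 0 passed under each setting run, and leaving out each mouse gave 0 throughout. The fit of the runs without the replicate block also called 0 members, as did limma-voom with the mouse as a block for the difference. No gene at all passed in these fits, so the calls cannot show what the block changes. Without replicate 4, 186 genes passed between the runs, with no member among them. Of all genes, 11 passed at 24m, against 216 with DESeq2, 152 with a shared dispersion, 46 with the other run's 6m libraries, 4 with at least 10 counts in every library and 4 to 30 when each mouse was left out. At 28m, 6140 passed, against 2981 with the other run's 6m libraries. Of the pairs, 10 passed, and 4 with the first run alone. Some values close to 0 changed sign. Nfil3 at 28m had a log2fc of 0.0223 with limma-voom, 0.0221 with upper-quartile scaling and 0.0014 with a dispersion shared by all libraries, and -0.20 to 0.26 when each mouse was left out. Leaving out each mouse gave -0.0793 to 0.21 for Dbp and -0.25 to 0.0023 for Hlf at 24m, and -0.0176 to 0.0709 for Tef and -0.038 to 0.0939 for Bhlhe40 in the difference. Tef with Rora had r = -0.13 with the length and GC trend removed. The cause of these shifts was not tested. The members had 138 to 12336 counts per library, the fewest for Rora.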
